A study of Homo sapiens with 6 samples.

Results

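The genes described here are 10 components and early response genes of transforming growth factor beta (TGF-β) and bone morphogenetic protein (BMP) signaling, TGFB1, TGFB2, INHBA, TGFBR1, TGFBR2, SMAD3, SMAD6, SMAD7, ID1 and ID3. They were chosen by name, as ligands, receptors, signal transducers, feedback inhibitors and targets of the pathway, with earlier results of these data known. All 10 were found among the 25369 genes counted. RNA-Seq had been performed on Caki2, a ccRCC cell line that makes no PBRM1 protein. PBRM1 is a subunit of the PBAF chromatin remodeling complex. Caki2+Vector cells carried an empty doxycycline-inducible lentiviral vector and Caki2+PBRM1 cells the same vector with full length PBRM1, driven by a tetracycline-responsive promoter together with an rtTA transactivator, and all samples of both groups were kept in doxycycline at 2 µg/ml. There were 3 biological replicates, A, B and C, per group, and the comparison asks which transcripts change when PBRM1 is put back. Whether the infected cells were a single clone or a pool is not given in the sources used here, and each group is 1 engineered line, so p-values measure the spread between replicate samples of those lines.

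TGF-β and activin ligands bind a type II receptor kinase, which phosphorylates a type I receptor, which in turn phosphorylates SMAD2 and SMAD3. BMP ligands use other receptors of the same families and signal through SMAD1, SMAD5 and SMAD9. The phosphorylated SMADs join SMAD4 and act on genes in the nucleus, among them those of the inhibitory SMADs, which feed back on the pathway. In kidney epithelium TGF-β is best known for driving matrix deposition and epithelial-mesenchymal change, and BMP signaling for its role in nephron formation and for opposing fibrosis.

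TGFB2 and TGFBR1 rose in Caki2+PBRM1 and INHBA fell, and the other 7 genes did not pass the test. These changes were small. The mean normalized count of TGFB2 was 1.30-fold and that of TGFBR1 1.29-fold the Caki2+Vector level on the scale tested, and INHBA fell by 10.3%, a call that was lost under several alternatives given below. A normalized count is the number of reads on a gene divided by a size factor of its sample, and the test was limma on log2(normalized count + 1) over 13303 genes, with an adjusted p (Benjamini-Hochberg) under 0.05. So 2 of 10 genes were higher and 1 of 10 lower, against 16.2% of all tested genes higher and 13.0% lower (29.2% in either direction). The median log2 fold change of the 10 was 0.09, and that of all tested genes was -0.0036. The groups did not overlap for 2 genes that were higher and 1 that was lower, where 22.1% and 19.6% of all tested genes (41.7% together) were so separated.

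**Figure D1:**
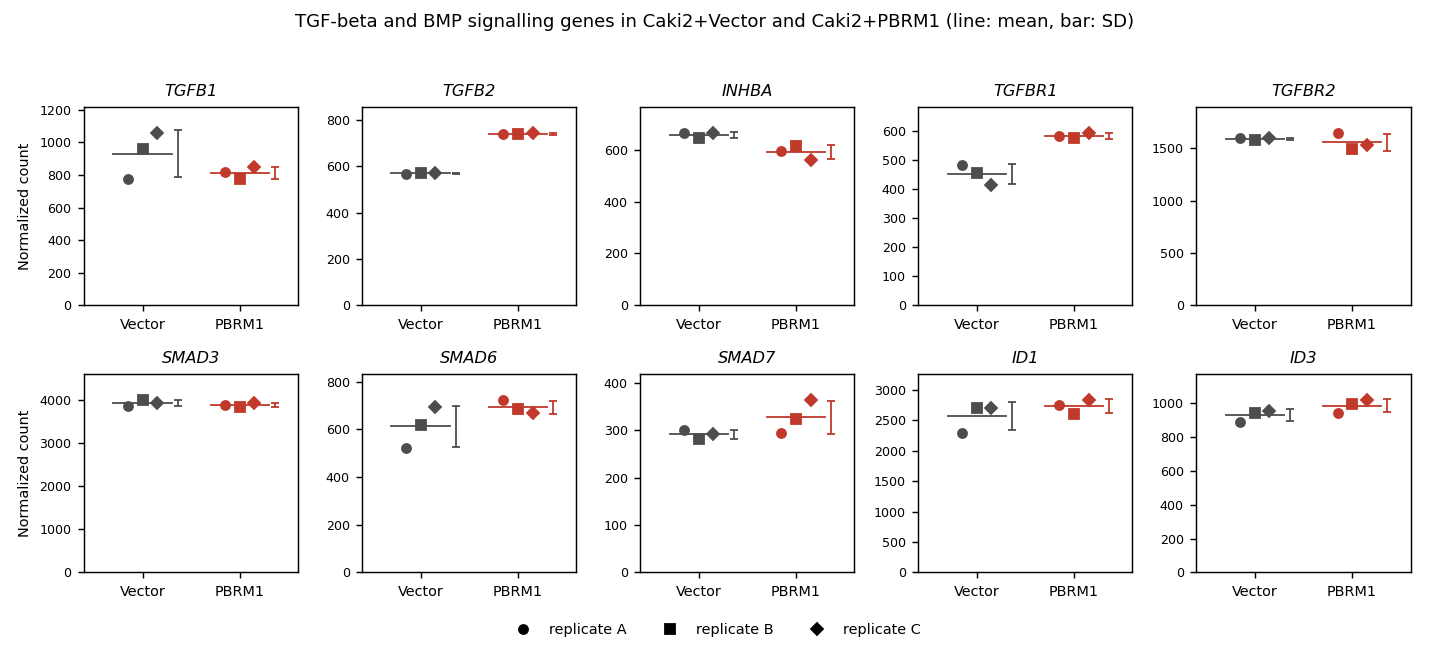
Normalized counts (vertical axes, from 0) of the 10 genes in each replicate of Caki2+Vector (grey) and Caki2+PBRM1 (red), with the mean as a line and the SD as a bar, n = 3 per group. The groups are apart for TGFB2, TGFBR1 and INHBA, and overlap for the other 7 genes.

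For the 3 genes that passed the test, the bases before the start of 1 transcript are shown, so that a reader can see what lies there. They are the 250 bases before the RefSeq start on the strand of the gene, 5′ to 3′, with the search motifs found in them in capitals. The TGFB2 region is chr1:218518428-218518677 (plus strand), that of TGFBR1 chr9:101867145-101867394 (plus strand) and that of INHBA chr7:41742689-41742938 (minus strand), all on GRCh37. The regions of TGFBR1 and INHBA lie inside the annotated gene, which has transcripts that start further upstream.
TGFB2: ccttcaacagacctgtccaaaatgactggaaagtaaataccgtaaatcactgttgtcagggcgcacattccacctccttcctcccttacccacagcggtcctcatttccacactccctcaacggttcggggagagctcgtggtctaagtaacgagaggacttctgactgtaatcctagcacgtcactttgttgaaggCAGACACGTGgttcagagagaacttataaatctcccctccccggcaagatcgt
TGFBR1: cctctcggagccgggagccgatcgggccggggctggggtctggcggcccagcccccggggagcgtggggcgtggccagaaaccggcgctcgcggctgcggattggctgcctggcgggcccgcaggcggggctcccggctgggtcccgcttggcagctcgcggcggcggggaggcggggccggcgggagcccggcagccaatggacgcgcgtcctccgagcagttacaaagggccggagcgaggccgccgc
INHBA: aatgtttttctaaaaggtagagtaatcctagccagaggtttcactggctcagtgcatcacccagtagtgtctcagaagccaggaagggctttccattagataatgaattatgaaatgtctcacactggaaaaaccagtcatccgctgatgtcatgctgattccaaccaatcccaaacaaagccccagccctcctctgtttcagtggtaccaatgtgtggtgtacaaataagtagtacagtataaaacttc
Both strands of 300-base windows, from 250 bases before to 50 bases after the start, were searched for 5 motifs. CAGACA, a SMAD binding element, was in the windows of TGFB2 and INHBA, 2 of the 10 genes, and in 16.9% of the 35116 windows in the RefSeq table. In TGFB2 it begins 53 bases before the start and overlaps the E-box CACGTG, which begins 49 bases before it, and in INHBA it begins 28 bases after the start, beyond the bases shown. CACGTG was in 2 of the 10 windows, those of TGFB2 and SMAD3, and in 7.26% of all. GGCGCC, a GC-rich SMAD element, was in 1, that of SMAD3, and in 19.2% of all, and the AP-1 site TGACTCA was in 1, that of TGFBR2, and in 4.95% of all. The cyclic AMP response element TGACGTCA was in 0 of the 10 and in 1.85% of all. The TGFBR1 window held none of the 5 motifs. Its GC content was 78.7%, that of TGFB2 51.7% and that of INHBA 43.3%, and the median of all windows was 58.7%.

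PBRM1 itself was measured first, as a check of the labels. The normalized count of PBRM1 was 195, 182 and 182 in Caki2+Vector A, B and C and 2432, 2521 and 2682 in Caki2+PBRM1 A, B and C, so every Caki2+PBRM1 sample lay far above every Caki2+Vector sample. The log2 fold change was 3.76 (95% interval 3.65 to 3.88, adjusted p = 3.33e-29 by limma). The deposited counts do not separate reads of the PBRM1 construct from reads of the cells' own gene. Depth ranged from 7312955 to 10835355 reads on genes per sample. Renal epithelial markers were all detected, PAX8 at 1888 to 2190 in Caki2+Vector, and 5 of 5 endothelial and 4 of 5 leukocyte markers stayed under 10 in every sample, as did 3 of 5 fibroblast markers. The remaining leukocyte marker, CD68, a lysosomal protein also made outside leukocytes, was at 1992 to 2139.9 in Caki2+Vector and lower with PBRM1, at 1898 to 1935 (log2 fold change -0.11, adjusted p = 0.0461 by limma). The summed renal epithelial markers were 16194 to 16986 in Caki2+Vector, against 15833 to 16495 with PBRM1. In such bulk samples, fewer cells making a transcript and less of it per cell cannot be told apart.

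One library stood apart from its replicates. The reads of Caki2+Vector A differed from those of B and C with a chi-square per degree of freedom of 3.09 and 2.84, where B and C differed with 1.34 and the pairs of Caki2+PBRM1 with 1.19 to 1.22. Caki2+Vector A was the lowest of the 3 for 6 of the 10 genes, and it lay below the mean of B and C by 0.38 on the log2 scale for TGFB1, 0.33 for SMAD6 and 0.23 for ID1. The median size of such a difference over all tested genes was 0.11. Without it, TGFB2, TGFBR1 and INHBA kept their calls and TGFB1 passed the test as well. So 2 of the 10 genes were higher and 2 lower, near the 16.9% and 14.4% of all genes in that fit.

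Among the ligands, TGFB1 encodes the most studied TGF-β, which is secreted in a latent form (chr19:41807492-41859827, minus strand, GRCh37, as all gene positions below). Its normalized count was 775, 959.9 and 1058 in Caki2+Vector A, B and C and 819, 775 and 848 in Caki2+PBRM1 A, B and C. Caki2+Vector A lay at the level of the lowest Caki2+PBRM1 sample, B and C lay above all 3, and the groups overlapped. Caki2+Vector averaged 931 ± 144 and Caki2+PBRM1 averaged 814 ± 36.6 (SD, n = 3), and the log2 fold change of -0.18 (95% interval -0.39 to 0.03) did not pass the test (adjusted p = 0.184 by limma, exact permutation p = 0.3). Without Caki2+Vector A it was -0.31 (adjusted p = 8.36e-07), so 1 library decided the call. Genes on the opposite strand, HNRNPUL1, CCDC97 and TMEM91, overlap TGFB1, and whether reads were counted by strand is not given in the sources used here.

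TGFB2 encodes a TGF-β that needs the co-receptor betaglycan for efficient binding (chr1:218518678-218617961, plus strand). The samples gave normalized counts of 567, 571 and 569 in Caki2+Vector A, B and C and 738, 739 and 744 in Caki2+PBRM1 A, B and C. The replicates of each group lay very close to each other and the groups did not overlap. TGFB2 had 1678 reads over the 3 Caki2+Vector samples and 2399 over the 3 Caki2+PBRM1 samples. Counting noise at that depth is wider than this closeness, so the SDs that follow do not measure reproducibility. Caki2+Vector averaged 569 ± 1.81 and Caki2+PBRM1 averaged 740.2 ± 3.68 (SD, n = 3), with a log2 fold change of 0.38 (95% interval 0.27 to 0.49, SE 0.0541, adjusted p = 2.72e-06 by limma). The exact permutation p was 0.1, the smallest that 3 against 3 samples allow. TGFB2 had the largest log2 fold change of the 10 genes, close to that of TGFBR1.

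INHBA encodes the βA subunit of activin A and inhibin A (chr7:41706766-41745432, minus strand). INHBA was counted at 664, 645 and 665 in Caki2+Vector A, B and C and 596, 616 and 561 in Caki2+PBRM1 A, B and C (normalized counts). All 3 Caki2+PBRM1 samples lay below all 3 Caki2+Vector samples, the nearest pair being Caki2+PBRM1 B and Caki2+Vector B. Caki2+Vector averaged 658 ± 11.1 and Caki2+PBRM1 averaged 591 ± 28.0 (SD, n = 3), with a log2 fold change of -0.16 (95% interval -0.27 to -0.04, SE 0.057, adjusted p = 0.0385 by limma, exact permutation p = 0.1). The call was lost without Caki2+Vector C (adjusted p = 0.092), Caki2+PBRM1 A (0.0845) or Caki2+PBRM1 C (0.212), and also with DESeq2 (0.133) and with no filter on low counts (0.059). INHBA-AS1, on the opposite strand, had a normalized count of 6.50 to 15.6 in the 6 samples.

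The other ligand of the activin group, INHBB, which encodes the βB subunit, moved the other way. Its normalized count was 731, 799 and 785 in Caki2+Vector and 1343, 1303 and 1392 in Caki2+PBRM1, without overlap, and its log2 fold change was 0.80 (95% interval 0.70 to 0.90, adjusted p = 1.90e-13 by limma). GDF15, a distant family member and stress-induced cytokine, rose by 0.53 on the log2 scale (adjusted p = 0.00562), with 731, 979 and 988 in Caki2+Vector and 1281, 1295 and 1287 in Caki2+PBRM1. Caki2+Vector A was the lowest sample for GDF15, and without it the log2 fold change was 0.39. TGFB3 (8.39 to 17.0 in the Caki2+Vector samples and 9.75 to 12.4 in those with PBRM1) and GDF11 (139 to 162 in the Caki2+Vector samples and 129.8 to 141 in those with PBRM1) had log2 fold changes of -0.09 and -0.13, and neither passed the test. With INHBA and the TGF-β genes, 3 of the 7 tested TGF-β and activin ligands were higher and 1 lower (all genes 16.2% and 13.0%), with a median log2 fold change of -0.09, and 7 further listed genes were under the filter on low counts.

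Of 19 BMP and GDF ligand genes only 4 passed that filter, and 6 had no read in any sample. BMP6, a ligand that acts through SMAD1, SMAD5 and SMAD9, was the only one of the 4 called higher, and 0 were called lower. All 4 had log2 fold changes above 0, and of all tested genes 16.2% were called higher and 13.0% lower. BMP6 had normalized counts of 93.7, 129 and 121 in Caki2+Vector and 182, 164 and 177 in Caki2+PBRM1, with a log2 fold change of 0.61 (95% interval 0.38 to 0.84, adjusted p = 0.000112 by limma). BMP2 had 76.7, 61.4 and 64.7 in Caki2+Vector and 82.3, 87.1 and 86.4 in Caki2+PBRM1 and also did not overlap, but its adjusted p was 0.0627 (0.0213 without Caki2+Vector A). The median log2 fold change of the 4 was 0.32.

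Among the receptors, TGFBR1 encodes the type I receptor kinase for TGF-β (chr9:101866320-101916474, plus strand). TGFBR1 had normalized counts of 485, 456 and 415 in Caki2+Vector A, B and C and 583, 575 and 594 in Caki2+PBRM1 A, B and C. Every Caki2+PBRM1 sample lay above every Caki2+Vector sample, and Caki2+Vector C was the lowest of all. Caki2+Vector averaged 452 ± 35.2 and Caki2+PBRM1 averaged 584 ± 9.64 (SD, n = 3), with a log2 fold change of 0.37 (95% interval 0.24 to 0.50, SE 0.0638, adjusted p = 4.08e-05 by limma, exact permutation p = 0.1). Without Caki2+Vector A it was 0.42.

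TGFBR2 encodes the type II receptor, which binds the ligand first (chr3:30648093-30735634, plus strand). TGFBR2 had normalized counts of 1597, 1576 and 1595 in Caki2+Vector A, B and C and 1648, 1492 and 1528 in Caki2+PBRM1 A, B and C. The Caki2+Vector samples fell inside the range of the Caki2+PBRM1 samples. The log2 fold change was -0.03 (95% interval -0.12 to 0.06, adjusted p = 0.642 by limma, exact permutation p = 0.6), an interval that leaves out changes of the size seen in TGFBR1.

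The other receptors of both families did not pass the test. Of the 8 that could be tested, 0 were called by limma in either direction, where 29.2% of all tested genes were. Their log2 fold changes ran from -0.17 for BMPR1B to 0.24 for ACVRL1, both type I receptors of the BMP branch. ALK2, encoded by ACVR1, had 638, 573 and 557 in Caki2+Vector and 627, 652 and 619 in Caki2+PBRM1, and the activin receptor gene ACVR1B had 686, 710.5 and 833 in Caki2+Vector and 734, 784 and 766 in Caki2+PBRM1. BMPR1A (-0.02), BMPR2 (0.05), ACVR2A (0.16) and ACVR2B (0.04) had log2 fold changes whose intervals also held 0. TGFBR1 was the only receptor of 10 tested to pass the threshold, where 16.2% of all tested genes were called higher and 13.0% lower. With 10 genes, 1 called higher is near that share. Without Caki2+Vector A, ACVR1 passed as well, with a log2 fold change of 0.16 (adjusted p = 0.0203).

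Among the transducers, SMAD3 is phosphorylated by TGF-β and activin type I receptors and binds DNA (chr15:67356101-67487511, plus strand). Its normalized count was 3847, 3991 and 3922 in Caki2+Vector A, B and C and 3881, 3839 and 3927 in Caki2+PBRM1 A, B and C. The samples of both groups were mixed, and the spread within a group was as large as the distance between them. The log2 fold change was -0.01 (95% interval -0.09 to 0.06, SE 0.0357, adjusted p = 0.812 by limma, exact permutation p = 0.5). Of the other 5 receptor-regulated and common SMADs, SMAD2 (0.07), SMAD4 (0.11), SMAD1 (-0.19) and SMAD5 (0.01) did not pass either, on the log2 scale. SMAD4 passed without Caki2+Vector A, at 0.19 (adjusted p = 0.0146). SMAD9, a BMP-responsive SMAD, rose from a low level, with 47.3, 28.3 and 32.4 in Caki2+Vector and 57.4, 54.2 and 58.8 in Caki2+PBRM1 and a log2 fold change of 0.68 (adjusted p = 0.00612 by limma), which was lost with DESeq2 (0.0552) and without Caki2+Vector B (0.0504).

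SMAD6 and SMAD7 encode the inhibitory SMADs, which block receptor signaling and are themselves induced by it. SMAD6, which acts mainly on BMP receptors (chr15:66994574-67075187, plus strand), had a normalized count of 523, 619.8 and 695 in Caki2+Vector A, B and C and 724, 688 and 669 in Caki2+PBRM1 A, B and C. Caki2+Vector A was the lowest sample, and Caki2+Vector C lay inside the Caki2+PBRM1 range, so the groups overlapped. The log2 fold change was 0.19 (95% interval 0.03 to 0.35), with an adjusted p of 0.0771 by limma and an exact permutation p of 0.3. It was 0.078 without Caki2+Vector A (adjusted p = 0.303) and 0.28 without Caki2+Vector C (adjusted p = 0.00232), so the value depends on which control library is used.

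SMAD7, which acts on both branches (chr18:46446223-46477335, minus strand), had a normalized count of 301, 282 and 291 in Caki2+Vector A, B and C and 294, 324 and 363 in Caki2+PBRM1 A, B and C. Caki2+PBRM1 A lay among the Caki2+Vector samples and the other two lay above them. The log2 fold change was 0.16 (95% interval -0.0016 to 0.32, adjusted p = 0.133 by limma, exact permutation p = 0.2). It was 0.082 without Caki2+PBRM1 C (adjusted p = 0.565) and 0.24 without Caki2+PBRM1 A (adjusted p = 0.0527), so it turned on those samples.

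Among the targets, ID1 and ID3 encode inhibitors of basic helix-loop-helix factors and are the standard transcriptional readout of BMP signaling. ID1 (chr20:30193086-30194318, plus strand) had a normalized count of 2300.4, 2701 and 2699 in Caki2+Vector A, B and C and 2748, 2609.6 and 2835 in Caki2+PBRM1 A, B and C, with Caki2+Vector A the lowest and the other samples overlapping. Its log2 fold change was 0.09 (95% interval -0.02 to 0.20, adjusted p = 0.213 by limma, exact permutation p = 0.4), and 0.016 without Caki2+Vector A. ID3 (chr1:23884417-23885992, minus strand) had 892, 942 and 956 in Caki2+Vector A, B and C and 942, 998 and 1019 in Caki2+PBRM1 A, B and C, again with overlap. Its log2 fold change was 0.08 (95% interval -0.02 to 0.19, adjusted p = 0.223 by limma, exact permutation p = 0.2).

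**Figure D2:**
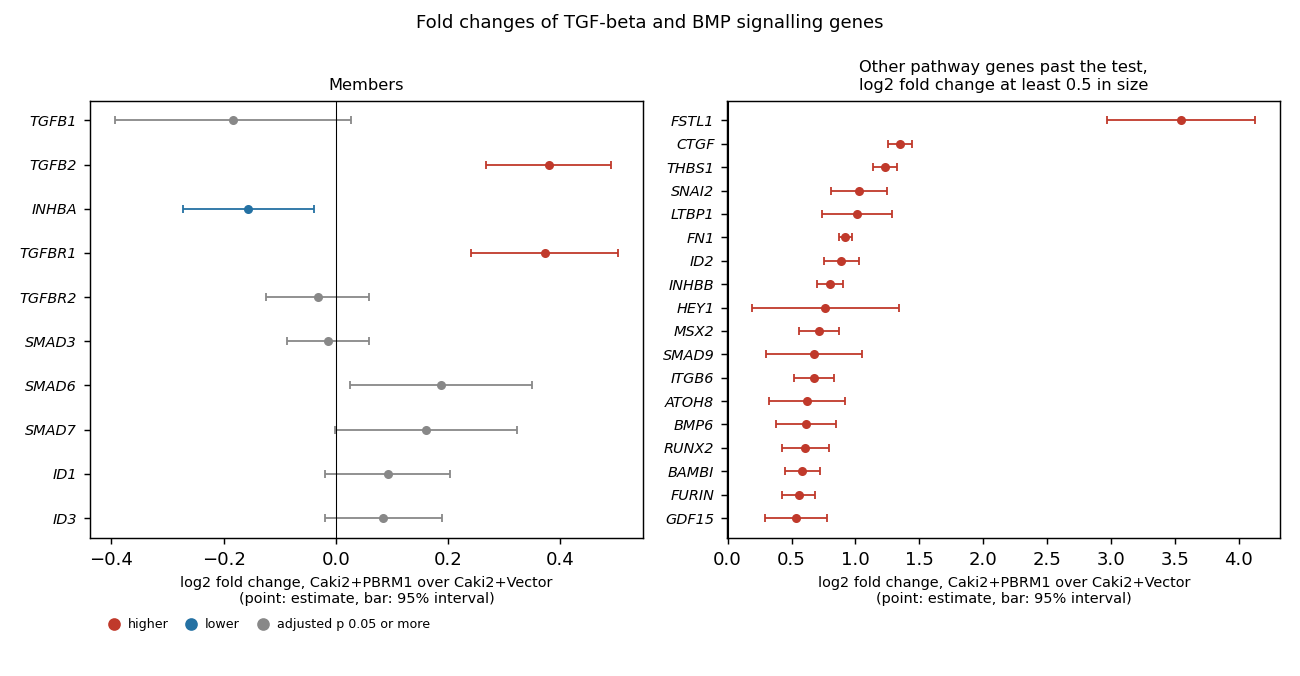
Log2 fold change of Caki2+PBRM1 over Caki2+Vector (horizontal axes, point with 95% interval from limma, n = 3 per group) for the 10 genes (left) and for 18 other pathway genes past the test with a log2 fold change of at least 0.5 in size (right, wider axis). On the left only TGFB2, TGFBR1 and INHBA are colored as called, and all 18 on the right are higher. FSTL1 passed the filter through Caki2+PBRM1 alone, so its point and interval are a description and not a test.

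The other ID genes differed from ID1 and ID3 in their calls. ID2 had 278, 295 and 279 in Caki2+Vector and 519, 514 and 548 in Caki2+PBRM1, without overlap, and a log2 fold change of 0.89 (95% interval 0.75 to 1.03, adjusted p = 1.36e-11 by limma). ID4, named here after its values were seen, had 612, 559 and 577 in Caki2+Vector and 715, 747 and 777 in Caki2+PBRM1 and a log2 fold change of 0.36 (adjusted p = 1.50e-05). The difference between the ID genes was not itself tested. The interval of ID2 (0.75 to 1.03) lay above that of ID1 (-0.02 to 0.20).

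A list of 14 BMP response genes, 4 of them among the 10 genes above, had 12 that could be tested. Of these, 7 rose, 0 fell and 5 did not pass, beside 16.2% higher and 13.0% lower of all tested genes, with a median log2 fold change of 0.47. The 5 were ID1, ID3, SMAD6, SMAD7 and MSX1, so that of the 8 tested genes of the list outside the 10, 7 rose. Besides ID2 and ID4, these were BAMBI, a decoy receptor without a kinase domain, at 312, 316 and 321 in Caki2+Vector and 483, 448 and 495 in Caki2+PBRM1 (log2 fold change 0.58, adjusted p = 6.90e-08), the homeobox gene MSX2 at 219, 243 and 222 in Caki2+Vector and 395, 356 and 369 in Caki2+PBRM1 (0.71, adjusted p = 1.85e-08), RUNX2, a regulator of bone formation (0.61, adjusted p = 4.48e-06), ATOH8, a helix-loop-helix factor (0.62, adjusted p = 0.00155), and HEY1, which is also a Notch target (0.77, adjusted p = 0.039). HEY1 was low, at 10.4 to 13.3 in the Caki2+Vector samples and 16.9 to 26.0 in those with PBRM1, and lost its call with DESeq2, with no filter and without Caki2+Vector B or C or Caki2+PBRM1 A or C. MSX1 had 51.1, 49.1 and 51.5 in Caki2+Vector and 43.3, 39.1 and 41.1 in Caki2+PBRM1, lower in every Caki2+PBRM1 sample, with an adjusted p of 0.197.

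A list of 16 TGF-β response genes had 15 that could be tested, of which 10 rose, 0 fell and 5 did not pass, where 16.2% of all tested genes were higher and 13.0% lower, with a median log2 fold change of 0.26. Those that rose most were CTGF, a matricellular protein, at 866, 924 and 913 in Caki2+Vector and 2374, 2266 and 2249 in Caki2+PBRM1 (log2 fold change 1.35, adjusted p = 6.12e-20), SNAI2, a repressor of epithelial genes, at 91.8, 92.6 and 108 in Caki2+Vector and 197, 219.5 and 184 in Caki2+PBRM1 (1.03, adjusted p = 9.03e-09), and the matrix protein gene FN1 (0.92, adjusted p = 2.41e-21). FN1 was the most abundant gene of every sample, with 2.02% to 2.16% of the reads of a Caki2+Vector sample and 3.79% to 3.89% of those of a Caki2+PBRM1 sample. The 5 that did not pass, named after their values were seen, were SMAD7, JUNB (-0.02), LTBP2 (0.02), COL1A1 (0.07) and SNAI1 (0.24), on the log2 scale. Many genes of this list respond to other pathways as well. Without Caki2+Vector A the same counts were 10 higher and 1 lower of 15 for this list and 7 and 0 of 12 for the BMP list, against 16.9% and 14.4% of all genes. The lower one was JUNB, at -0.14 (adjusted p = 0.0322).

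A list of genes for TGF-β latency and activation, with the LTBP family included, was the next group. Of 10 tested, 5 rose, 0 fell and 5 did not pass, against 16.2% and 13.0% of all tested genes higher and lower, with a median log2 fold change of 0.24. THBS1, a matricellular protein that can activate latent TGF-β, had 867, 909.8 and 871 in Caki2+Vector and 2150.1, 2059 and 2015 in Caki2+PBRM1, without overlap (log2 fold change 1.23, adjusted p = 8.07e-19). LTBP1, which tethers latent TGF-β to matrix, rose from a low level, with 62.5, 54.8 and 53.9 in Caki2+Vector and 130, 107 and 112 in Caki2+PBRM1 (1.01, adjusted p = 7.53e-07). ITGB6 and ITGAV encode the integrin αvβ6, which activates latent TGF-β. ITGB6 had 281, 259.8 and 252 in Caki2+Vector and 417, 468 and 385 in Caki2+PBRM1 (0.67, adjusted p = 6.18e-08), and ITGAV, named after its values were seen, had a log2 fold change of 0.37 (adjusted p = 3.53e-10). FURIN, the protease that cleaves the TGF-β precursor, had 445, 508 and 532 in Caki2+Vector and 699.7, 726 and 755 in Caki2+PBRM1 (0.56, adjusted p = 6.61e-08). LTBP2, LTBP3, LTBP4, LRRC32 and ITGB8 did not pass, with log2 fold changes from -0.11 to 0.12. Of these, ITGB8 passed without Caki2+Vector A, at 0.094 (adjusted p = 0.0473).

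Among the secreted antagonists, FSTL1, a glycoprotein that binds BMP4, had 9.47, 2.83 and 5.99 in Caki2+Vector and 74.7, 78.2 and 73.9 in Caki2+PBRM1. It passed the filter on low counts through the Caki2+PBRM1 samples alone, so its fold change is given as a description with no test. The log2 fold change was 3.55, and 3.03 with a pseudocount of 4. FSTL3, TWSG1 and SOST did not pass (FSTL3 was called lower without Caki2+Vector A, at -0.27, adjusted p = 6.22e-05). Of 4 tested co-receptors, BAMBI alone was called higher and 0 were called lower, against 16.2% and 13.0% of all tested genes. The log2 fold changes of 3 of the 4 were above 0. TGFBR3, which encodes betaglycan, had 48.3, 46.3 and 55.1 in Caki2+Vector and 35.7, 40.9 and 46.2 in Caki2+PBRM1 without overlap but with an adjusted p of 0.232.

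Of 15 intracellular modulators, 3 rose and 1 fell, near the shares of all tested genes (16.2% and 13.0%), with a median log2 fold change of 0.06. The 4 are named here after their values were seen. The corepressor genes SKI (0.41, adjusted p = 0.0433) and SKIL (0.21, adjusted p = 8.79e-04) and the feedback inhibitor PMEPA1 (0.37, adjusted p = 6.69e-07) were higher, and the deubiquitinase gene USP15 was lower, with 726, 659 and 729 in Caki2+Vector and 634, 616 and 617 in Caki2+PBRM1 (-0.18, adjusted p = 0.0177). SKI lost its call with DESeq2 (0.112), with no filter on low counts (0.0762) and without Caki2+Vector B, Caki2+PBRM1 B or Caki2+PBRM1 C, and its log2 fold change was 0.24 without Caki2+Vector A. USP15 lost its call with DESeq2 (0.069) and without Caki2+Vector C, Caki2+PBRM1 B or Caki2+PBRM1 C. Without Caki2+Vector A, the counts were 5 higher and 1 lower of 15, against 16.9% and 14.4% of all genes. The ubiquitin ligase genes SMURF1 (0.03) and SMURF2 (0.00) had log2 fold changes near 0.

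**Figure D3:**
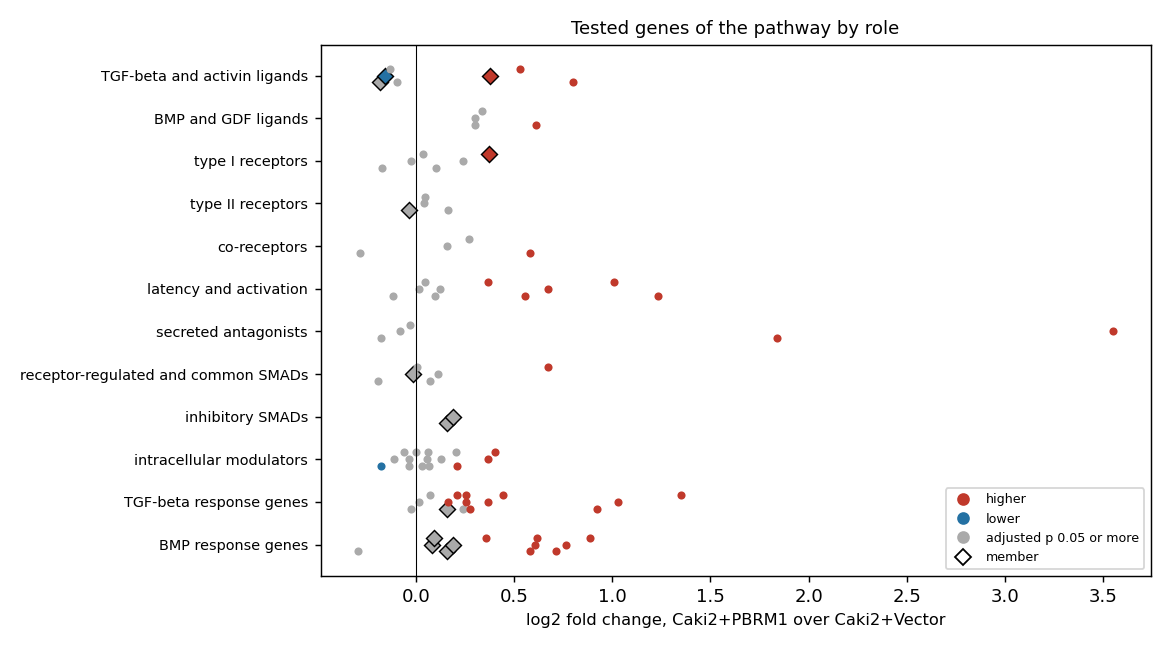
Log2 fold change of Caki2+PBRM1 over Caki2+Vector (horizontal axis) of each tested gene of the 12 lists (rows), with the 10 genes as diamonds and color for the call by limma. Called genes are mostly to the right of 0, in the response and latency rows above all. The type I receptor, type II receptor and inhibitory SMAD rows hold 1 called gene, TGFBR1, where 29.2% of all tested genes were called.

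Each gene counted once and the 10 left out, 114 further genes of these lists were in the files and 73 could be tested. Of these, 29 (39.7%), FSTL1 included, were higher and 1 (1.37%) was lower, against 16.2% and 13.0% of all tested genes, with a median log2 fold change of 0.16. Where every sample had to reach 10, which leaves out FSTL1, the counts were 27 higher and 1 lower of 69 (all genes 16.2% and 13.5%). Without Caki2+Vector A the counts were 35 higher and 3 lower, against 16.9% higher and 14.4% lower of all genes. The 10 genes themselves stood at 2 higher and 1 lower. The lists were written with results of these data known, 6 genes are in more than 1 list, and no set test was run, so these counts are a description.

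Levels can be compared between genes only per length, here as normalized counts per kb of the canonical transcript. In Caki2+Vector the order was ID1 (2611), ID3 (979), SMAD3 (606), TGFBR2 (351), TGFB1 (335), SMAD6 (160), INHBA (109), TGFB2 (97.0), SMAD7 (87.2) and TGFBR1 (69.6). TGFBR2 and TGFB1 were closer than the SD of TGFB1 between replicates. In Caki2+PBRM1 TGFB2 (126) stood above SMAD7 (97.8) and INHBA (97.7), which were alike, and TGFBR1 (90.0) remained the lowest. Other isoforms would change the lengths and so the order.

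Ratios of partner genes within each sample show the balance between related transcripts. They were chosen after the values were seen and are given without a test. Per kb, TGFB2 to TGFB1 was 0.255 to 0.346 in Caki2+Vector, against 0.416 to 0.451 in Caki2+PBRM1. TGFBR1 to TGFBR2 was 0.181 to 0.212 and 0.247 to 0.271. INHBB to INHBA was 2.08 to 2.34 and 3.99 to 4.68. In these 3 pairs the groups did not overlap, with the higher values in Caki2+PBRM1. SMAD3 to SMAD7 was 6.61 to 7.33 and 5.59 to 6.83, so that the groups overlapped, with the lower mean in Caki2+PBRM1 (6.18 ± 0.626 against 6.96 ± 0.36, SD, n = 3). TGFB1 varied most between the Caki2+Vector samples.

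**Figure D4:**
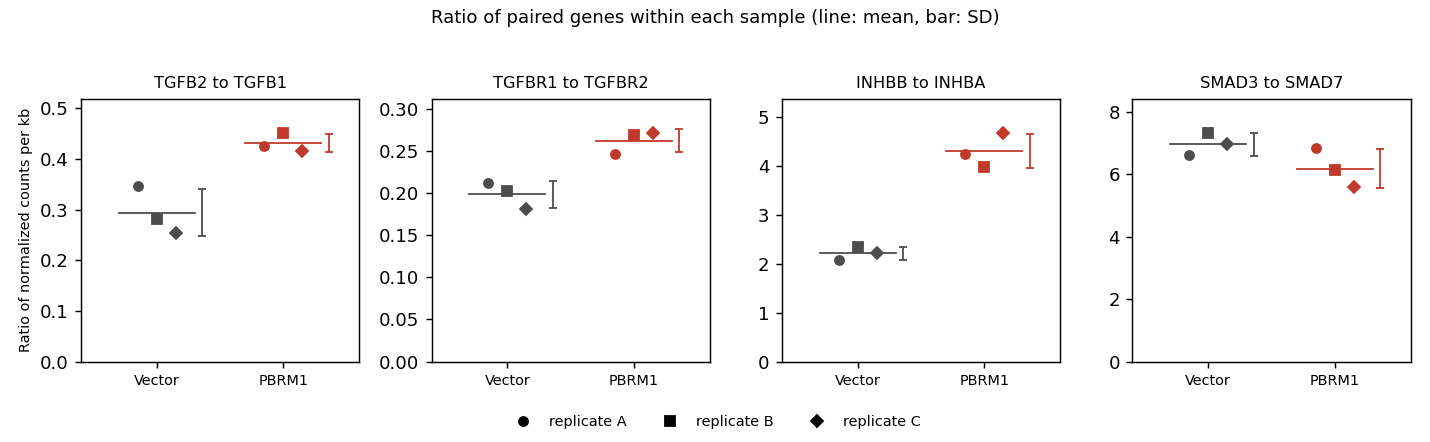
Ratio of normalized counts per kb (vertical axes, from 0) of 4 gene pairs in each replicate of Caki2+Vector (grey) and Caki2+PBRM1 (red), with the mean as a line and the SD as a bar, n = 3 per group. All Caki2+PBRM1 samples lie above all Caki2+Vector samples in the first 3 panels, at 0.416 to 0.451 against 0.255 to 0.346 for TGFB2 to TGFB1, and the groups overlap for SMAD3 to SMAD7.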

How the data were processed

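RNA-Seq of 3 Caki2+Vector and 3 Caki2+PBRM1 replicates was analysed, with groups and letters from the labels. Gene counts were made by the authors with htseq-count from STAR alignments on hg19, after cleaning that also took out rRNA. What was deposited is a normalized count signal, the read count of each gene divided by a size factor of its sample (0.834 to 1.191). Whole reads were recovered for 100% of values (within 0.001).

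A gene was tested if its normalized count reached 10 in 3 or more samples (13303 genes). The test was limma 3.58.1, run in R 4.3.3 on log2(normalized count + 1) with the trend and robust options and Benjamini-Hochberg adjustment, at an adjusted p under 0.05. Single genes were also compared by a two-sided exact permutation test of the normalized counts. The main fit, edgeR, DESeq2, limma voom and TMM scaling (below) were first run on simulated counts. All genes there had the same dispersion (spread beyond counting noise) and no library stood apart, so the simulation does not cover a library like Caki2+Vector A. With 7312955 to 10835355 reads on genes, the SE of the log2 fold change had a median of 0.0829 over tested genes.

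The alternatives were edgeR 4.0.16 (quasi-likelihood, 2194 genes higher and 1836 lower), DESeq2 1.42.0 and limma voom on the recovered reads, TMM scaling, other filters and pseudocounts of 0.5 and 4, a stricter threshold of 0.01, a replicate block, and leaving out each sample in turn. The 10 genes and the lists were chosen with earlier results of these data known. Named genes are the 10, PBRM1, and list genes past the threshold with a log2 fold change of at least 0.5 in size, and receptors and SMADs as partners. Other list genes named with a value were chosen after their values were seen.

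Gene positions and canonical lengths come from GENCODE on GRCh37, by symbol. Upstream sequences come from the RefSeq promoter table (GRCh38.p14), where all 10 genes matched, and were placed on GRCh37 by an exact match. For several starts the one nearest the canonical transcript start was used. Library strandedness is not given in the sources used here. Of the named list genes, 1 is not reported here, and of the 18 others 3 overlap a counted gene on the opposite strand (BMP6, RUNX2 and THBS1). Computations outside R used Python 3.11.15.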

Additional observations from a re-analysis of the deposited data

How the results depend on the processing

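TGFB2 and TGFBR1 kept their direction and call under each alternative that was run (log2 fold changes of 0.37 to 0.38 and 0.31 to 0.42 when a sample was left out), and none of the 10 genes, PBRM1 or the 30 called list genes reversed. For other named genes, values under the alternatives are given for some only, mostly where a call changed. INHBA had a log2 fold change of -0.16 with DESeq2 and with no filter, and neither passed (adjusted p of 0.133 and 0.059). When a sample was left out it was -0.19 to -0.12. TGFB1 was -0.31 to -0.085 and SMAD6 0.078 to 0.28 in the same way. The number of the 10 genes called lower was 0 with DESeq2, 0 with no filter and 0 at an adjusted p under 0.01, and 0 to 2 when a sample was left out (2 without Caki2+Vector A, 0 without Caki2+Vector C, Caki2+PBRM1 A or Caki2+PBRM1 C), against 1. Other pathway genes lower numbered 2 with edgeR, 0 with DESeq2, 0 at an adjusted p under 0.01 and 0 to 3 when a sample was left out (3 without Caki2+Vector A, 0 without Caki2+PBRM1 B or C), against 1. Other pathway genes higher numbered 25 to 29 under the other settings and 25 to 35 when a sample was left out, against 29. Over all genes the number higher also moved, to 1496 to 2249 under the other settings. It was 1649 to 2252 when a sample was left out, against 2152. Of all genes, 1734 were lower, against 1057 with DESeq2, 1025 at an adjusted p under 0.01 and 1207 to 1918 when a sample was left out. Of the 30 other called list genes, 25 kept their call under each setting.

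With the replicate letter as a block, TGFB1 (-0.18, adjusted p = 0.021) and SMAD6 (0.19, adjusted p = 0.0345) passed the test by limma, so that 3 of the 10 genes were higher and 2 lower, against 16.9% and 14.0% of all genes under the block. Other pathway genes lower numbered 2. Over all tested genes, samples with the same letter did not deviate together (correlations of 0.0059, -0.0077 and 0.0138). Such correlations cannot show whether a smaller set of genes did, and what the letters stand for is not given in the sources used here. The cause of these changes was not tested.

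Depth limits low genes most, with an SE of the log2 fold change of 0.28 for HEY1 against 0.024 for FN1. Leaving out Caki2+Vector A moved TGFB1, SMAD6 and ID1 most of the 10 genes. Each group is 1 engineered line.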
